A study of Oryza sativa with 12 samples.

Results

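The heat effect shared by 2 rice (Oryza sativa) cultivars was estimated in spikelets, the small units of the rice panicle that each hold 1 flower. All 6 libraries of the heat treatment were set against all 6 libraries of the control in an additive model of cultivar plus temperature, so that the 12 libraries analysed are all 12 of the series. The treated groups were BR-IRGA 409, described in the labels as tolerant, and IRGA 428, described as sensitive, each at 38 °C. Their controls were plants of the same cultivars at 29 °C. Each of the 4 groups had 3 libraries of 2 plants, so a library averages a pair of plants. Treatment ran for 7 h of the day on 3 days at anthesis, and spikelets of the mid-panicle were frozen when it ended. All plants were grown flooded, and no mutant allele, transgene or other agent was named for any group. Each temperature was applied to both cultivars, but only 2 genotypes stand behind the word "shared".

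Rice is most easily damaged by heat while its flowers open, when anthers must split, pollen must shed and germinate, and ovules are fertilised. Plant cells answer heat through heat shock transcription factors, which switch on chaperones that keep other proteins folded, while many genes of growth and metabolism are turned down. The deposited IDs start with MH and are not paired with gene names, and 0 of 57174 matched the rice gene table used here. Chaperones, pollen genes and other functional classes were therefore not counted, the tissue was not checked against marker genes, and genes appear under their IDs with no role attached.

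Depth, counted as reads assigned to genes, ran from 16.52 to 75.4 M (M, 1000000 counts) in the heat libraries and from 7.08 to 16.39 M in the control libraries. Every heat library was thus deeper than every control library. The mean difference in log2 depth, averaged over the cultivars, was 1.55 (exact permutation p = 0.005 with labels permuted within cultivars, the smallest possible, adjusted p = 0.035 over 7 library measures). In IRGA 428, control library 3 and heat library 1 lay closer to each other (biological coefficient of variation 0.0797) than any libraries of the same temperature in that cultivar (0.111 to 0.367). Results below are also given without this pair where they move. Fewer cells of a type and less RNA per cell cannot be told apart in such whole-spikelet samples.

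Across both cultivars, 4390 of 22321 genes tested (19.7%) changed with temperature. At 38 °C, 2211 genes (9.91%) were higher and 2179 (9.76%) were lower, by edgeR's quasi-likelihood test at a Benjamini-Hochberg adjusted p below 0.05. Rises and falls were nearly equal in number with this scaling, while upper-quartile scaling gave 2035 rises and 2543 falls, and leaving out IRGA 428 control library 2 gave 2585 and 1973. The median log2 fold change was 0.83 for the genes that rose and −0.61 for those that fell, while the median over all genes tested was −0.01. At least a 2-fold change was reached by 910 genes that rose and 605 that fell, at least 4-fold by 181 and 83, and at least 8-fold by 33 and 11. In 1805 calls (41.1%) the change was under 1.5-fold. The largest log2 values among called genes were 6.58 and −4.53.

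The calls sat close to the threshold. The smallest adjusted p was 0.0174, shared by 437 genes, and 0 genes had an adjusted p below 0.01, whereas 8208 genes (36.8%) had an unadjusted p below 0.05. Tested against a change of 1.5-fold in place of no change, 0 genes were called, and 2238 had an unadjusted p below 0.05. The last called gene had an adjusted p of 0.04998 and the first uncalled one 0.05003. Another 575 genes tested differed by at least 2-fold and were not called.

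Depth and temperature could not be told apart over these libraries. Within cultivars, log2 depth and temperature had a correlation of 0.794, given as a description over 12 libraries. A model of cultivar and log2 depth without temperature called 5266 genes for depth, more than the model with temperature called for heat. With both terms in the model, 0 of 22321 genes were called for temperature, and 808 (3.62%) had an unadjusted p below 0.05. For depth, 1 gene was called and 1919 had an unadjusted p below 0.05. The 4390 called genes were chosen for their heat effect in the same libraries, which favours a kept sign. In the fit with both terms, 4378 of them kept the sign of their heat effect. Its median was 0.39 for the genes called higher and −0.36 for those called lower, and the median standard error over the called genes was 0.269, against 0.180 without depth in the model. When all libraries were thinned at random to the size of the smallest, 3120 of 20619 genes were called for temperature, 1650 higher and 1470 lower. Thinning removes the difference in counts, not any property of the samples that goes with depth. With the original depth as a covariate, the thinned libraries gave 0 calls (757 of 20619 genes at an unadjusted p below 0.05).

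**Figure D1:**
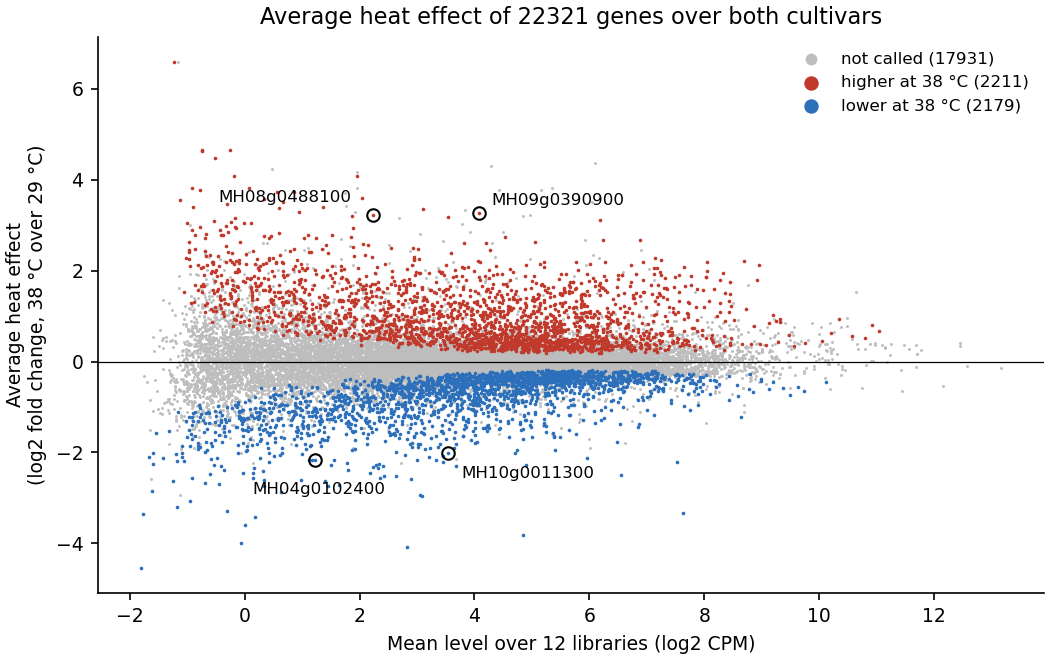
Average heat effect of each of 22321 genes (vertical axis, log2 fold change, 38 °C over 29 °C) against its mean level over 12 libraries (horizontal axis, log2 of CPM, counts for each 1000000 gene counts). Red points are the 2211 genes called higher, blue points the 2179 called lower and grey points the rest; circles mark the 4 genes named in the text. Called changes at low levels are large, and most called changes above 4 log2 CPM lie close to 0.

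The plot of heat effect against level shows where the calls lay. Levels in CPM (counts for each 1000000 gene counts, on scaled library sizes) are not corrected for gene length, so the classes sort genes by reads and not by molecules. From 4 to 6 log2 CPM, 816 of 7554 genes rose and 814 fell (21.6% called), and the median size of a called change was 0.48 on the log2 scale. Below 0 log2 CPM, 135 of 1687 genes rose and 116 fell (14.9% called), with a median size of 1.66. The median standard error of the heat effect was 0.398 in that lowest class and 0.105 from 4 to 6 log2 CPM, so a call at low level needed a larger change. Of the called genes, 95.2% changed at least 2-fold in the lowest class, and 17.8% did so from 4 to 6 log2 CPM.

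The genes with most reads differed mainly in having fewer falls. Above 8 log2 CPM, 56 of 527 genes rose (10.6%, against 9.91% of all genes tested) and 24 fell (4.55%, against 9.76%). In this class 15.2% of genes were called, against 19.7% of all genes tested. The class was not read under other scalings. In no class below that level did the counts of rises and falls lie as far apart in proportion. Of the 100 genes with the highest mean log2 CPM, 9 rose and 3 fell, with log2 fold changes between −0.64 and 0.93. Genes called higher held 9.21% to 15.9% of all gene counts in the heat libraries and 5.94% to 9.43% in the control libraries. Genes called lower held 5.27% to 6.83% in the heat libraries and 7.12% to 11.7% in the control libraries. The first of these shares overlapped between temperatures through IRGA 428, where control library 2 (9.43%) lay above heat library 1 (9.21%). These shares describe genes chosen by the same contrast and were not tested.

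Heat and control libraries were also compared by rank, without a model. In 426 genes (1.91%) every heat library lay above every control library in CPM, whatever the cultivar, and in 373 genes (1.67%) every heat library lay below. Of these, 393 and 351 were called. When libraries were compared only within their own cultivar, the heat libraries lay above the controls in both cultivars in 728 genes (3.26%) and below in both in 734 (3.29%), of which 630 and 640 were called. Read in BR-IRGA 409 alone, 4993 of the 22321 genes had all heat libraries above and 4624 all below. In IRGA 428 alone these counts were 1277 and 1301, so far fewer genes separated there. The cultivars had opposite orders without overlap in 39 of the 22321 genes. Without the close pair of IRGA 428 libraries, 2511 genes had all heat libraries above and 2084 all below, against 426 and 373 with it. The pair was picked because a heat and a control library were alike, so leaving it out favours separation by construction. Fewer libraries also separate more readily, and the genes tested were another set (22892 against 22321). Leaving out other pairs was not tried for this count.

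A few genes lay on opposite sides of 1 CPM at the temperatures in all 12 libraries. In 6 of the 22321 genes tested, all control libraries were below 1 CPM and all heat libraries were at or above it. Their heat libraries reached 1.01 to 5.09 CPM, and their log2 fold changes were 0.74 to 2.82. In 3 genes, named here after their values were seen, the order was the reverse: MH03g0499900, MH07g0302000 and MH09g0305000 had 0.227 to 0.997 CPM in heat libraries and 1.01 to 3.04 CPM in control libraries. Their log2 fold changes were −1.28, −1.95 and −1.37. All 9 were called, which their separation in the same libraries makes likely, and none was above 5.09 CPM in any library.

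Called genes whose mean level was at least 1 log2 CPM, and whose 6 heat libraries did not overlap the 6 controls, numbered 341 higher and 314 lower at 38 °C. The 2 that rose most and the 2 that fell most are given in full. The largest rise among these was that of MH09g0390900. Its level was 97.4, 6.88 and 24.9 CPM in BR-IRGA 409 at 38 °C, against 2.63, 2.51 and 1.39 CPM at 29 °C. In IRGA 428 it was 6.40, 31.3 and 14.0 CPM at 38 °C, against 0.609, 4.56 and 4.25 CPM at 29 °C. The heat libraries spread widely, with library 1 of BR-IRGA 409 highest, and all lay above the highest control library. Its average heat effect was a log2 fold change of 3.27 (SE 0.73, edgeR adjusted p = 0.0203), and 2.61 without BR-IRGA 409 heat library 1 (edgeR adjusted p = 0.0419). The call was lost without control library 1 or 3 of BR-IRGA 409 (edgeR adjusted p = 0.0550 and 0.0511) and with limma-voom (adjusted p = 0.0826).

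MH08g0488100 rose by a similar average, but through 1 library more than the others. It had 36.6, 0.871 and 2.93 CPM in BR-IRGA 409 at 38 °C, and 0.553, 0.528 and 0.756 CPM at 29 °C. In IRGA 428 it had 1.40, 4.09 and 1.61 CPM at 38 °C, and 0.203, 0.866 and 0.635 CPM at 29 °C. The lowest heat library (0.871 CPM, 39 counts) and the highest control library (0.866 CPM, 15 counts) nearly met. The log2 fold change was 3.23 (SE 0.96, edgeR adjusted p = 0.0390), and 1.85 without BR-IRGA 409 heat library 1 (edgeR adjusted p = 0.0444). Its call was lost in 16 of 29 alternative settings, limma-voom among them (log2 fold change 2.29, adjusted p = 0.287).

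Among the 314 genes that were lower without overlap and at 1 log2 CPM or more, the largest fall was that of MH04g0102400. It had 0.747, 0.491 and 0.583 CPM in BR-IRGA 409 at 38 °C, against 4.42, 1.98 and 2.77 CPM at 29 °C. In IRGA 428 it had 1.40, 1.35 and 1.01 CPM at 38 °C, against 11.4, 3.06 and 1.52 CPM at 29 °C. Within each cultivar the heat libraries lay close together, while the control libraries of IRGA 428 spread widely, and its control library 3 lay just above heat library 1. The log2 fold change was −2.17 (SE 0.43, edgeR adjusted p = 0.0174).

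MH10g0011300 fell almost as far, also without overlap. Its values were 4.43, 5.14 and 3.11 CPM in BR-IRGA 409 at 38 °C, and 30.4, 13.5 and 14.2 CPM at 29 °C. In IRGA 428 they were 10.2, 3.08 and 2.84 CPM at 38 °C, and 33.6, 13.0 and 10.4 CPM at 29 °C. IRGA 428 heat library 1 and control library 3 again stood next to each other, at 10.24 and 10.41 CPM. The log2 fold change was −2.01 (SE 0.40, edgeR adjusted p = 0.0174). With log2 depth in the model, the 4 genes in the order given had log2 fold changes of 2.41, 3.01, −0.99 and −0.89, with an edgeR adjusted p of 0.983 for each.

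**Figure D2:**
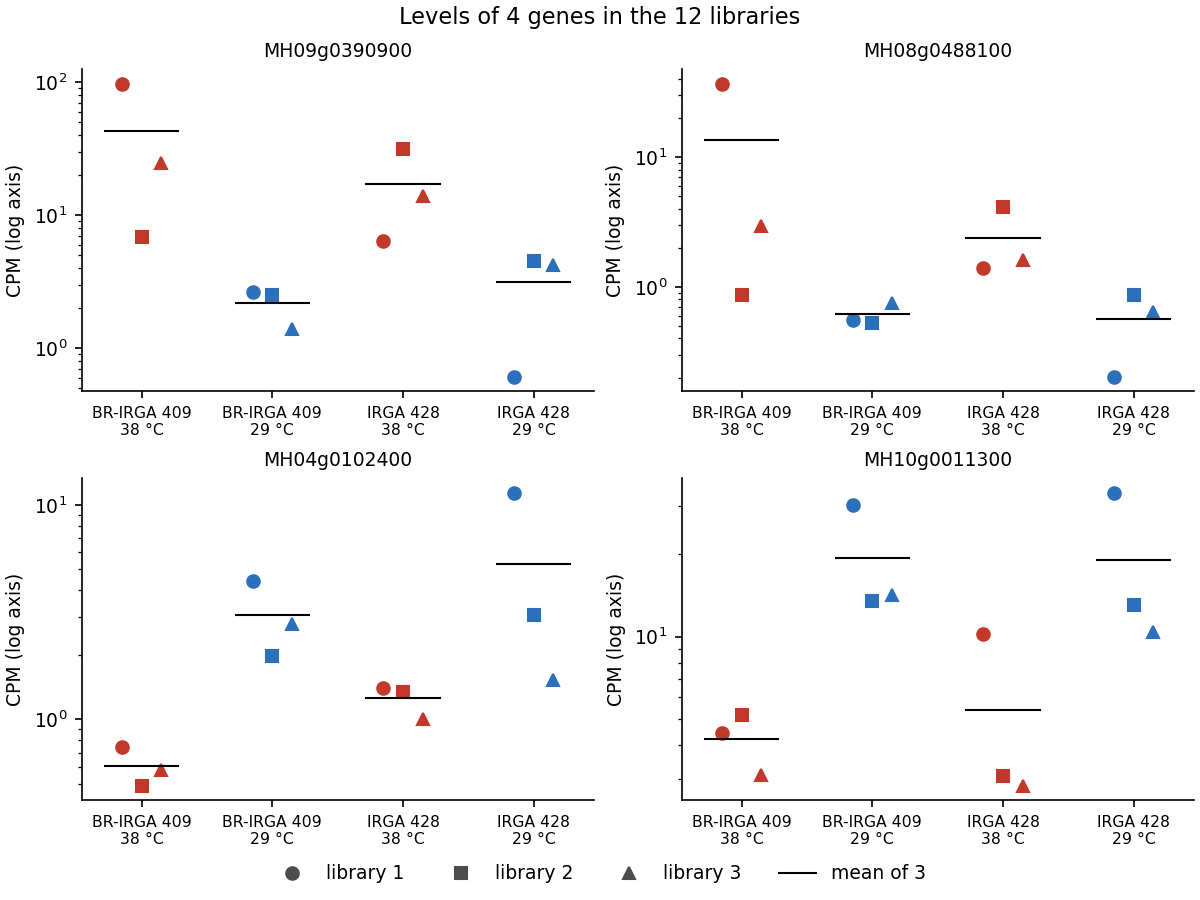
Level of the 4 named genes (vertical axes, CPM on a log scale) in each of the 12 libraries, by cultivar and temperature. Symbols are libraries 1, 2 and 3 of a group and bars are group means; every red point (38 °C) of MH09g0390900 and MH08g0488100 lies above every blue point (29 °C), and the reverse holds for the lower 2 panels.

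The heat effect of the called genes was also read within each cultivar. For the genes called higher, the median log2 fold change was 1.04 in BR-IRGA 409 (quartiles 0.60 and 1.81) and 0.59 in IRGA 428 (quartiles 0.34 and 0.97). For the genes called lower, it was −0.70 in BR-IRGA 409 (quartiles −1.20 and −0.46) and −0.48 in IRGA 428 (quartiles −0.89 and −0.30). Both cultivars entered the average that chose these genes, so these values are a description. At least a 2-fold rise in both cultivars was found for 495 called genes, in BR-IRGA 409 alone for 660 and in IRGA 428 alone for 24. At least a 2-fold fall in both was found for 393, in BR-IRGA 409 alone for 317 and in IRGA 428 alone for 67. The sign in IRGA 428 differed from the call in 7 genes called higher and 4 called lower. These genes held 3 counts or fewer in the 6 IRGA 428 libraries together. All other called genes had the same sign in both cultivars, which choosing genes by the average makes likely. In 16 called genes the 6 IRGA 428 libraries held 3 counts or fewer together, so that the call rested on BR-IRGA 409.

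Whether the change differed between the cultivars was tested by the interaction in a model with 1 mean per group. Of the 4390 genes called for the average effect, 398 (9.07%) had an unadjusted interaction p below 0.05, against 5.54% of all genes tested and 4.67% of genes not called. In 248 of the 249 such genes that rose, and in 148 of the 149 that fell, the change was larger in BR-IRGA 409. These genes had first been chosen for their average effect. The same share was not counted among uncalled genes at that interaction p, so these counts have no background beside them. After Benjamini-Hochberg adjustment, 0 of the 4390 genes passed (edgeR), and 1 gene passed among all tested. The share of 9.07% depended on the libraries included. Without IRGA 428 control library 1 it was 24.5% (9.10% of all genes in that fit), and without any other single library 5.44% to 10.8%. Without IRGA 428 control library 3 it was 7.11%, below the 8.24% of all genes, and without IRGA 428 heat library 1 it was 5.97%, near the 5.48% of all genes. Without both of these it was 5.97%, below the 7.67% of all genes.

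The change was larger in BR-IRGA 409 in 1976 of the genes called higher (89.4%) and in 1739 of those called lower (79.8%), against 66.2% of all genes tested. Over both directions this share was 84.6%, and it was 69.4% without IRGA 428 control library 3, 76.3% without heat library 1 and 63.3% without both. The share over all genes was computed with all 12 libraries, and the difference between the shares was not tested. Depth went the same way: the log2 difference between temperatures was larger in BR-IRGA 409 than in IRGA 428 by 1.77 (exact permutation p = 0.155, adjusted p = 0.2975 over 7 measures). The part of depth in the unequal changes was not tested. In the 4 named genes, the log2 fold changes were 4.28, 4.47, −2.30 and −2.19 in BR-IRGA 409, and 2.39, 1.96, −2.05 and −1.83 in IRGA 428. The differences between cultivars had interaction p-values of 0.193 to 0.783 in edgeR, before adjustment, with n = 3 libraries a group in this fit across all genes.

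**Figure D3:**
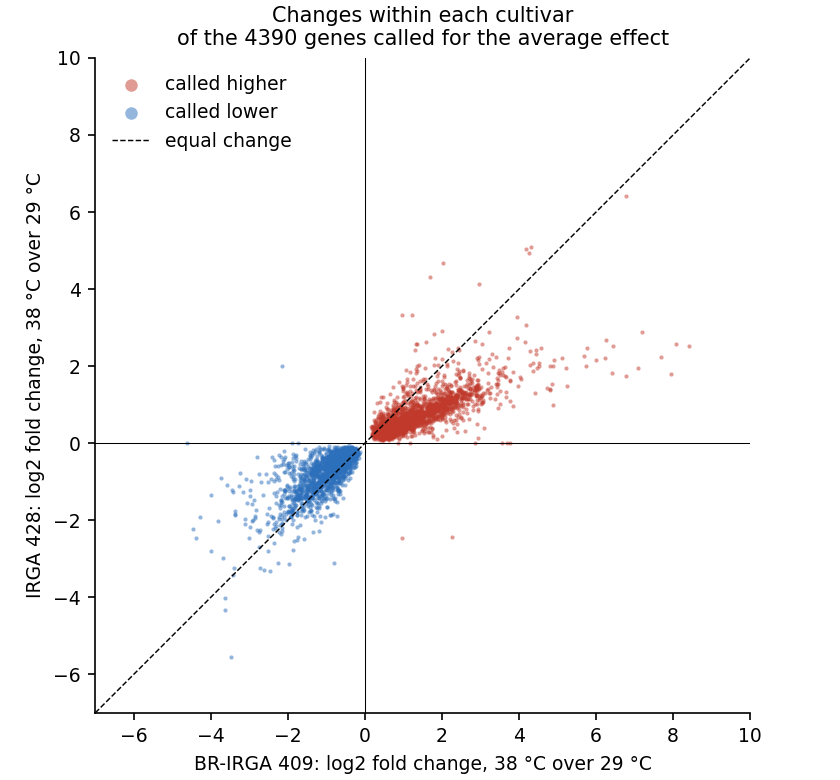
Log2 fold change (38 °C over 29 °C) in BR-IRGA 409 (horizontal axis) and in IRGA 428 (vertical axis) of the 4390 genes called for the average effect. Red points were called higher and blue points lower; most lie on the BR-IRGA 409 side of the dashed line of equal change, with medians of 1.04 and 0.59 for the genes called higher. Both axes entered the choice of genes.

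The average effect was then read in libraries that had not been used to choose the genes. Each library was left out, genes were called in the other 11, and the left-out library was placed on those genes. Its score was the mean log2 CPM of the genes called higher minus that of the genes called lower, each gene measured from the midpoint of the other heat and control means of the same cultivar. A positive score lies on the heat side. This reading was chosen after the calls had been seen.

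In BR-IRGA 409 all 6 left-out libraries fell on the side of their label. The scores were 1.46, 0.63 and 1.35 at 38 °C, against −1.39, −0.66 and −1.09 at 29 °C. In IRGA 428 they were −0.21, 0.78 and 1.10 at 38 °C, against −2.17, 0.12 and 0.45 at 29 °C. The sign went against the label in 3 of the 12 libraries, heat 1, control 2 and control 3 of IRGA 428. These 3 libraries had 16.52, 16.39 and 15.8 M counts in the order given, and these were the IRGA 428 libraries nearest in depth. The next library below them, control 2 of BR-IRGA 409 (14.95 M counts), lay on the side of its label. Control 1 of IRGA 428, with 8.88 M counts, had the lowest score of all. The midpoint against which the other IRGA 428 libraries were read includes it.

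**Figure D4:**
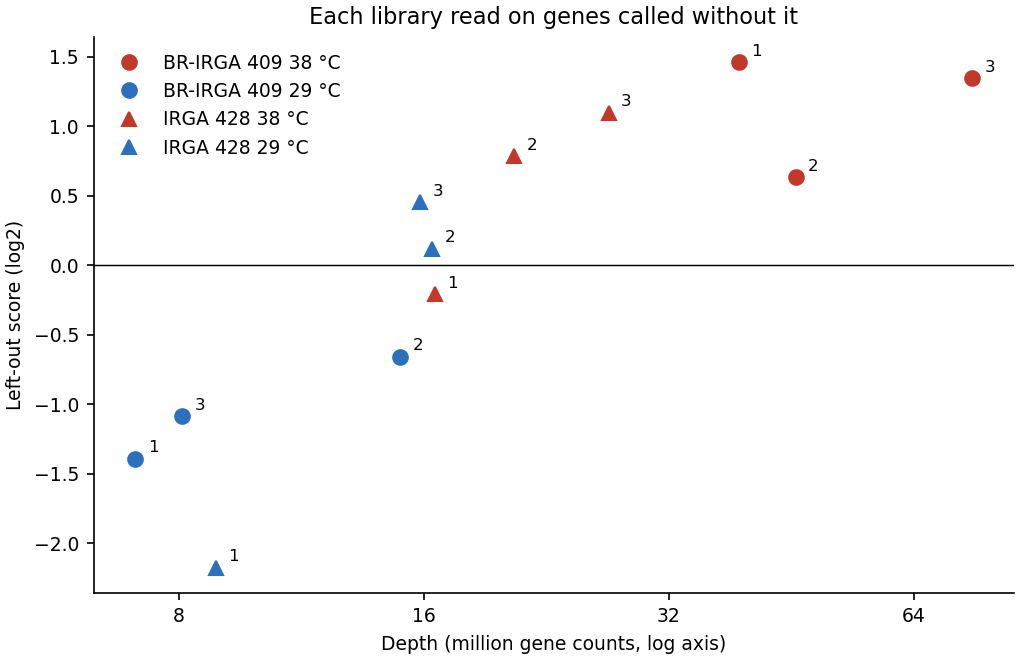
Score of each library on genes called without it (vertical axis, log2; above 0 is the heat side) against its depth (horizontal axis, M gene counts on a log scale). Circles are BR-IRGA 409, triangles IRGA 428, red 38 °C, blue 29 °C, and digits are library numbers. The 3 IRGA 428 libraries between 15.8 and 16.52 M counts lie on the side opposite to their label, with scores from −0.21 (heat 1) to 0.45 (control 3).

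The number of calls moved with the libraries included. Without control 1, 2 and 3 of BR-IRGA 409 it was 693, 1874 and 1120, and without heat 1, 2 and 3 it was 1469, 2564 and 726. Without control 1, 2 and 3 of IRGA 428 it was 2429, 4558 and 6853, and without heat 1, 2 and 3 it was 5086, 2355 and 1208. Leaving out a BR-IRGA 409 library lowered the count every time, while leaving out control 2, control 3 or heat 1 of IRGA 428 raised it. Without both control 3 and heat 1 of IRGA 428, 7572 genes were called, 3782 higher and 3790 lower, and 4346 of the 4390 calls remained. This pair was picked for its likeness across temperatures, which favours a higher count. A fit of only the 6 BR-IRGA 409 libraries called 5001 of 22420 genes (8314 at an unadjusted p below 0.05). A fit of only the 6 IRGA 428 libraries called 0 of 21396 (1237 at an unadjusted p below 0.05). In each of the 12 fits that left out a library, all 4390 genes kept the sign of their change. These fits share most of their libraries with each other and with the fit that chose the genes.

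**Figure D5:**
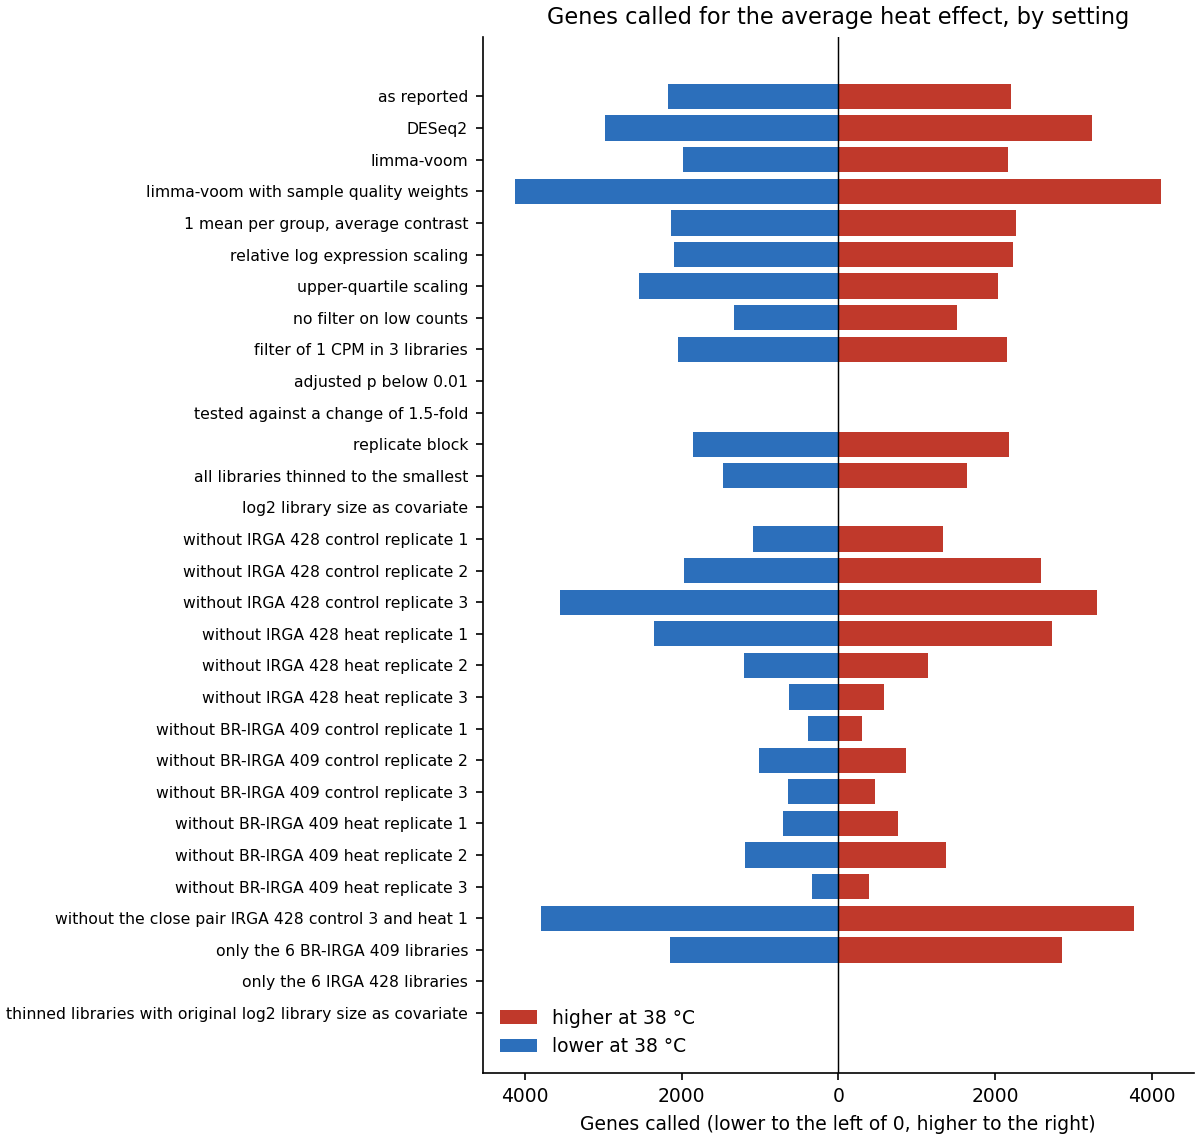
Genes called for the average heat effect (horizontal axis, number of genes) under each setting, with genes higher at 38 °C in red to the right of 0 and genes lower in blue to the left. A setting with no bar gave 0 calls; counts without 1 library run from 693 to 6853.

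Heat calls occurred on each of the 12 chromosomes. Here the 2 digits that follow MH were taken to name the chromosome; no file says so. By chromosome, 17.1% to 21.2% of genes tested were called. The lowest share was on chromosome 10 (114 higher and 93 lower of 1213) and the highest on chromosome 7 (168 higher and 197 lower of 1719). Falls were 7.59% of genes on chromosome 8 and 11.5% on chromosome 7, and rises 8.87% on chromosome 1 and 11.4% on chromosome 6. Median log2 fold changes by chromosome lay between −0.02 and 0.02. No test was made of these shares.

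Calls were also counted for genes next to each other in ID order, taken here as order along the chromosome. Of the genes called higher, 313 of 2209 (14.2%) were followed by another called higher, against 9.91% of all genes, and 8.65% by one called lower. Of those called lower, 296 of 2179 (13.6%) were followed by another called lower, against 9.76%, and 7.39% by one called higher. For rises of at least 2-fold the share was 98 of 909 (10.8%, against 4.08% of all genes), and for falls of at least 2-fold 41 of 605 (6.78%, against 2.71%). In 80 places, 3 or more tested genes in a row were called the same way, 34 higher and 46 lower. No test was made of these shares. Reads of near-identical neighbours may be split or dropped in counting, so values of single genes in such rows are uncertain.

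Rows of at least 5 such genes were found in 6 places, 4 higher and 2 lower, and 3 of them are given here, chosen after their values were seen. From MH04g0645600 to MH04g0646300, 7 of the 8 listed genes were tested and all 7 rose, with log2 fold changes of 1.09 to 2.10. Their summed level was 78.9, 31.5 and 93.2 CPM in BR-IRGA 409 at 38 °C, against 20.2, 20.1 and 25.7 CPM at 29 °C. In IRGA 428 it was 18.6, 42.3 and 65.4 CPM at 38 °C, against 9.45, 10.9 and 17.7 CPM at 29 °C. The summed level separated the temperatures within each cultivar, but IRGA 428 heat library 1 lay below the controls of BR-IRGA 409.

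From MH06g0642300 to MH06g0642900, 5 of 7 listed genes were tested and all 5 rose, by 1.16 to 2.63 on the log2 scale. The sum was 933, 617 and 737 CPM in BR-IRGA 409 at 38 °C, against 101, 176 and 97.2 CPM at 29 °C. In IRGA 428 it was 133, 505 and 484 CPM at 38 °C, against 29.3, 336 and 118 CPM at 29 °C. The temperatures separated in BR-IRGA 409 and overlapped in IRGA 428, through control library 2. From MH05g0342300 to MH05g0343400, 5 of 12 listed genes were tested and all 5 fell, with log2 fold changes of −2.64 to −0.34. Their sum was 65.7, 58.2 and 56.8 CPM in BR-IRGA 409 at 38 °C, against 91.3, 75.2 and 84.1 CPM at 29 °C, and 63.7, 64.1 and 62.9 CPM in IRGA 428 at 38 °C, against 112, 90.9 and 65.3 CPM at 29 °C. By this sum the heat libraries lay below the controls within each cultivar, in IRGA 428 by a narrow margin from control library 3. Mean levels of these 5 genes ran from −1.25 to 6.07 log2 CPM, so the sum mostly follows the most abundant gene.

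The additive model also gives the difference between cultivars, and called genes of both kinds were set side by side. For cultivar, 2102 genes (9.42%) were called, with a median size of 1.05 on the log2 scale, against 0.71 for the genes called for temperature. Both were called in 336 genes, which are 7.65% of the temperature calls and 16.0% of the cultivar calls. Of these, 128 were higher at 38 °C and higher in BR-IRGA 409, 55 higher at 38 °C and higher in IRGA 428, 62 lower at 38 °C and higher in BR-IRGA 409, and 91 lower at 38 °C and higher in IRGA 428. The overlap was not tested.

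Measures of whole libraries were tested beside depth. At equal depth, genes with at least 1 count numbered 25248 ± 129.8 (SD, n = 3) in BR-IRGA 409 at 38 °C and 24865 ± 386 at 29 °C, and 25424 ± 2.65 in IRGA 428 at 38 °C and 25192 ± 191 at 29 °C. The difference, averaged over cultivars, was 307 genes (exact permutation p = 0.045, adjusted p = 0.098). The 100 genes with most counts in a library held 17.6% ± 0.721 (SD, n = 3) in BR-IRGA 409 at 38 °C and 17.5% ± 0.580 at 29 °C, and 17.7% ± 0.402 in IRGA 428 at 38 °C and 15.9% ± 1.03 at 29 °C. This difference had an exact permutation p of 0.07 (adjusted p = 0.098). Reads with several alignments took a share higher by 0.841 percentage points at 38 °C (exact permutation p = 0.015, adjusted p = 0.0525). Shares of unaligned reads, reads outside genes and ambiguous reads differed by −0.000995, 0.239 and −0.000892 percentage points (exact permutation p = 1, 0.79 and 0.065). With all 12 libraries, depth alone of the 7 measures passed after adjustment. That call was lost without control 1, 2 or 3, heat 2 or heat 3 of IRGA 428 (exact permutation, adjusted p = 0.0525 to 0.105). In each of these sets every heat library was still deeper than every control library. The lost call is therefore not read as a lost difference in depth. Genes detected passed without control 2 of BR-IRGA 409 (415 genes, exact permutation, adjusted p = 0.0175). Reads with several alignments passed without that library or without heat 1 of IRGA 428 (0.840 and 0.947 points, exact permutation, adjusted p = 0.035 and 0.0175).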

How the data were processed

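Messenger RNA was measured in 12 spikelet libraries grouped by the cultivar and treatment given in the sample titles. The authors deposited whole, unscaled counts of reads for each gene. Trimmomatic 0.33, HISAT2 2.05 and HTSeq 0.6.1 are named in the submitters' processing notes. Their parameters, the genome build and any use of strand were not given in the sources used here, so overlapping antisense genes may not be told apart. The 5 summary lines that end each file (19.9% to 25.0% of reads) entered neither library sizes nor tests.

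The deposited counts were fitted in edgeR 4.0.16 (R 4.3.3) with filterByExpr, trimmed mean of M-values scaling, a robust quasi-likelihood fit of cultivar plus temperature (9 residual degrees of freedom) and Benjamini-Hochberg adjustment over all genes tested. Fold changes are log2, 38 °C over 29 °C. The fit was tested on simulated counts. Library measures were compared by exact two-sided permutation within cultivars. Named IDs are at most 2 per direction, with the largest change among called genes of mean log2 CPM of at least 1 and no overlap between temperatures. Genes and comparisons were chosen with earlier results of these data known. Alternatives used DESeq2 1.42.0 and limma 3.58.1, other scalings, filters, thresholds, depth terms and left-out libraries.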

Additional observations from a re-analysis of the deposited data

Results flagged for a closer look

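The 4 named genes and 7 library measures gave 22 sets of 6 libraries at 1 temperature. In 4 sets a single library lay past Dixon's 95% limit of 0.625 for the gap to its nearest neighbour over the range. Chance gives about 1 in 20 sets where values are normally distributed. The sets mix both cultivars, and the 4 flagged ones hold CPM off the log scale, of genes chosen for large changes in the same data. That rate does not apply to them, so 4 of 22 is not read as an excess. MH09g0390900 had 97.4 CPM in BR-IRGA 409 heat library 1, with the next heat library at 31.3 CPM. MH08g0488100 had 36.6 CPM in the same library, with the next at 4.09 CPM. MH04g0102400 had 11.4 CPM in IRGA 428 control library 1, with the next control library at 4.42 CPM. MH10g0011300 had 10.2 CPM in IRGA 428 heat library 1, with the next heat library at 5.14 CPM.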

How the results depend on the processing

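Against 4390 calls (2211 higher, 2179 lower), limma-voom with sample quality weights gave 8252 (4126 and 4126), no filter on low counts 2848 (1517 and 1331), the fit without the close IRGA 428 pair 7572 (3782 and 3790), and an adjusted p below 0.01, a test against 1.5-fold, a depth covariate (also with thinned libraries) and IRGA 428 alone 0. DESeq2 gave 6216, limma-voom 4149 and other scalings 4334 (2235 and 2099) and 4578 (2035 and 2543). Left-out libraries gave 693 to 6853 calls (309 to 3299 higher, 331 to 3554 lower). Library numbers were not stated to pair heat with control libraries, so they were not taken as pairs. Of 6 same-numbered pairs, 3 had a correlation over 0.1 (range −0.305 to 0.577). So few libraries can neither show nor exclude pairing. The replicate block gave 4030 calls and changed the call of no named gene. For library measures the block swaps labels only within the 6 pairs. So few arrangements could hardly bring an adjusted p below 0.05. The value for log2 depth (1.55, exact permutation, adjusted p = 0.109) is therefore not read as a lost call. Nothing is read from the block for the other library measures. Genes without overlap numbered 799, and 4595 without the pair (2511 above, 2084 below). The interaction share of 9.07% was 2.03% at p below 0.01, 5.97% without the pair, 10.6% with the replicate block and 5.44% to 24.5% without 1 library. Over left-out libraries, differences ran from 1.41 to 1.71 for log2 depth, 230 to 415 genes detected and 0.753 to 0.947 points for reads with several alignments. The calls of MH09g0390900, MH08g0488100, MH04g0102400 and MH10g0011300 held in 21, 13, 24 and 24 of 29 settings, with no change of sign. Settings with the close pair left out (for shares and overlap), with depth in place of temperature and with depth in thinned libraries were chosen after seeing the data. Other causes were not tested. Low depth in the controls limits genes below 1 CPM.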
